A study of Mus musculus with 8 samples.

Results

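The 10 genes described here encode the contractile apparatus and filaments that mark smooth muscle: Acta2, Actg2, Tagln, Myh11, Cnn1, Tpm1, Tpm2, Des, Mylk and Smtn. They were chosen from 21291 gene rows by name and by their levels in the mutant libraries against the control libraries, so their difference between genotypes is a description and carries no test. The RNA came from whole kidney pairs of mouse embryos at E14.5, with 4 control and 4 mutant libraries of polyadenylated RNA. Controls were Six2-GFPcre tg/+; Etv4+/-; Etv5fl/fl, and mutants were Six2-GFPcre tg/+; Etv4-/-; Etv5fl/fl. All 8 embryos therefore carried the Cre transgene and the floxed Etv5 pair, and the labelled difference between groups is the second null allele of Etv4. The 2 genes encode transcription factors of the ETS family. The Six2 promoter drives Cre in nephron progenitors, the mesenchymal cells that give rise to the nephron, whereas the Etv4 null allele is not written as conditional on Cre. The series title asks what ablating both does in the progenitors and the cells derived from them.

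Smooth muscle cells contract when calcium and calmodulin activate myosin light chain kinase (Mylk), which phosphorylates the light chains of the smooth muscle myosin heavy chain Myh11, so that it pulls on filaments of the actins Acta2 and Actg2. Tropomyosins (Tpm1, Tpm2) lie along the actin filament, calponin 1 (Cnn1), transgelin (Tagln) and smoothelin (Smtn) bind it, and desmin (Des) forms the muscle intermediate filaments. In the embryonic kidney and ureter such genes are found in vessel walls, in pericytes and mesangial cells, and in the muscle coat that forms around the ureter and pelvis. Tpm1, Tpm2, Mylk and Smtn are also made outside smooth muscle, and desmin is made by skeletal and heart muscle too. Many of these genes are activated by serum response factor (Srf) with its partner myocardin (Myocd), which act through a DNA motif called the CArG box.

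Promoter sequences are shown for the 3 members whose control and mutant libraries did not overlap, Des, Tpm2 and Mylk, and for Acta2, the gene most used as a smooth muscle marker. The sequences are from RefSeq on GRCm38.p6, run 5′ to 3′ along the gene's strand and cover 250 bases before to 50 bases after the annotated start. Capitals mark a CArG box, with up to 1 G or C allowed among the bases between its CC and GG ends. They also mark the letters CCGGAA, a form of the site that ETS factors recognise, with both strands searched. ETS sites with other letters before GGAA were not searched for.
Acta2, chr19:34255324-34255623, minus strand: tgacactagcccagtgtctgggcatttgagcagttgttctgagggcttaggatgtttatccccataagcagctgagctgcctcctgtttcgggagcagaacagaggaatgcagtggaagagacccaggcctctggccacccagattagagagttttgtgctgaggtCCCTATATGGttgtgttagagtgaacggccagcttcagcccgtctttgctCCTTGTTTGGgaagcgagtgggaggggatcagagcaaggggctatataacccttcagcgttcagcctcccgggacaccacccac
Des, chr1:75360042-75360341, plus strand: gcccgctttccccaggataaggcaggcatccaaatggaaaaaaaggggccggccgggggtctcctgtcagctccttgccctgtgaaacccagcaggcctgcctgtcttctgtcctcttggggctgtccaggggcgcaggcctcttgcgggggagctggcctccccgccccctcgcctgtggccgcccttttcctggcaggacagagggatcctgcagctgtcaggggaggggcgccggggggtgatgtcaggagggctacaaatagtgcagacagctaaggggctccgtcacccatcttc
Tpm2, chr4:43523505-43523804, minus strand: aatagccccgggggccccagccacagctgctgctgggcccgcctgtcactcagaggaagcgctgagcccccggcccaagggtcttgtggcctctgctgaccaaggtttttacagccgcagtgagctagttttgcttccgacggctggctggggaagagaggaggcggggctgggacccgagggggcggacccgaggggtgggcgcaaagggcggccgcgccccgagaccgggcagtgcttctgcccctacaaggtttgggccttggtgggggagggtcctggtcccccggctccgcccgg
Mylk, chr16:34784700-34784999, plus strand: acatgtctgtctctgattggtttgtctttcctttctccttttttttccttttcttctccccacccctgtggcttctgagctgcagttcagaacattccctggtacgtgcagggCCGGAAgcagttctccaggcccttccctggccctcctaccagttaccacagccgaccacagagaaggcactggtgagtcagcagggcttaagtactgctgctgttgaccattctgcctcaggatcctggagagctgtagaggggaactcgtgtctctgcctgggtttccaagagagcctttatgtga
The table held 7 of the 10 members, with Actg2, Tagln and Myh11 unmatched. The Acta2 promoter held 2 CArG boxes of this looser form, starting at bases 167 and 217 of the window, and the other 6 promoters held none. CCGGAA was found in Mylk, from base 114, and in Smtn, from base 31 on the opposite strand. Both of these windows lie inside the gene, downstream of its outermost annotated start. For Mylk that start is at 34745210. For Smtn, with its window at 3539243 to 3539542 on chromosome 11, it is at 3540612. No match overlapped another. Of 32851 promoters of this length, 9.98% held the looser CArG box, 1.63% the strict form and 14.9% CCGGAA. A match describes letters in this window and is not a measured binding site. The Des and Tpm2 windows held neither this CArG box nor CCGGAA, which leaves other forms of an ETS site unsearched.

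On GRCm38 (mm10), Des lies on chromosome 1 (75360329 to 75368579, plus strand) and Tpm2 on chromosome 4 (43514711 to 43523765, minus strand). Mylk is on chromosome 16 (34745210 to 35002420, plus strand), as is Myh11 (14194535 to 14291372, minus strand). Acta2 is on chromosome 19 (34241090 to 34255590, minus strand). Chromosome 9 carries Tagln (45929619 to 45936058, minus strand), Cnn1 (22099216 to 22109630, plus strand) and Tpm1 (67022590 to 67049406, minus strand). Actg2 is on chromosome 6 (83512905 to 83536265, minus strand) and Smtn on chromosome 11 (3517523 to 3540612, minus strand). Actins and tropomyosins are similar families, but at most 1.39% of the 31-base words in a member's annotated transcripts, the value for Acta2, also occurred in another gene. Annotated genes on the opposite strand overlap Des, Tagln, Mylk and Smtn, and no source used here gives the strand setting of the counting, so reads from such a partner cannot be told apart.

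Each library was 1 kidney pair, and total estimated counts ranged from 15515139 in control 4 to 39548327 in control 2. In control 4, 18.4% of counts came from a single gene, Lars2. Etv4 was at 2311 to 2816 normalized counts in controls and 164 to 294 in mutants, and Etv5, floxed in both groups, at 3006 to 4085 and 1487 to 2657. The Y-linked gene Ddx3y was at 1553 to 1629 in every control and at 0 in every mutant, so genotype and the sex of the embryo cannot be told apart in any difference below. Normalized counts are estimated counts divided by a library size factor, and all differences are log2 fold changes of mutant minus control from 1 limma fit over 14974 genes. In that fit 0.301% of genes passed a Benjamini-Hochberg adjusted p of 0.05 in either direction and 0.220% passed with lower levels in mutants. An unadjusted p under 0.05 was found for 12.0% of genes, the background for each such count below. The control and mutant libraries did not overlap for 8.60% of genes. Because this is whole-organ RNA, fewer cells of a type and less RNA per cell cannot be told apart.

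The members did not move as a block. Des and Tpm2 were lower in every mutant than in every control, Mylk was higher in every mutant than in every control, and the other 7 overlapped. The log2 fold change was above 0 for 8 members and below 0 for 2, with a median of 0.24 against 0.01 over all genes tested. Without mutant 1 the members' median was 0.42 and without mutant 3 it was 0.13. One of the 10, Tpm2, passed the threshold and 3 of the 10 did not overlap. Since this contrast chose the members, nothing is read from those counts.

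**Figure D1:**
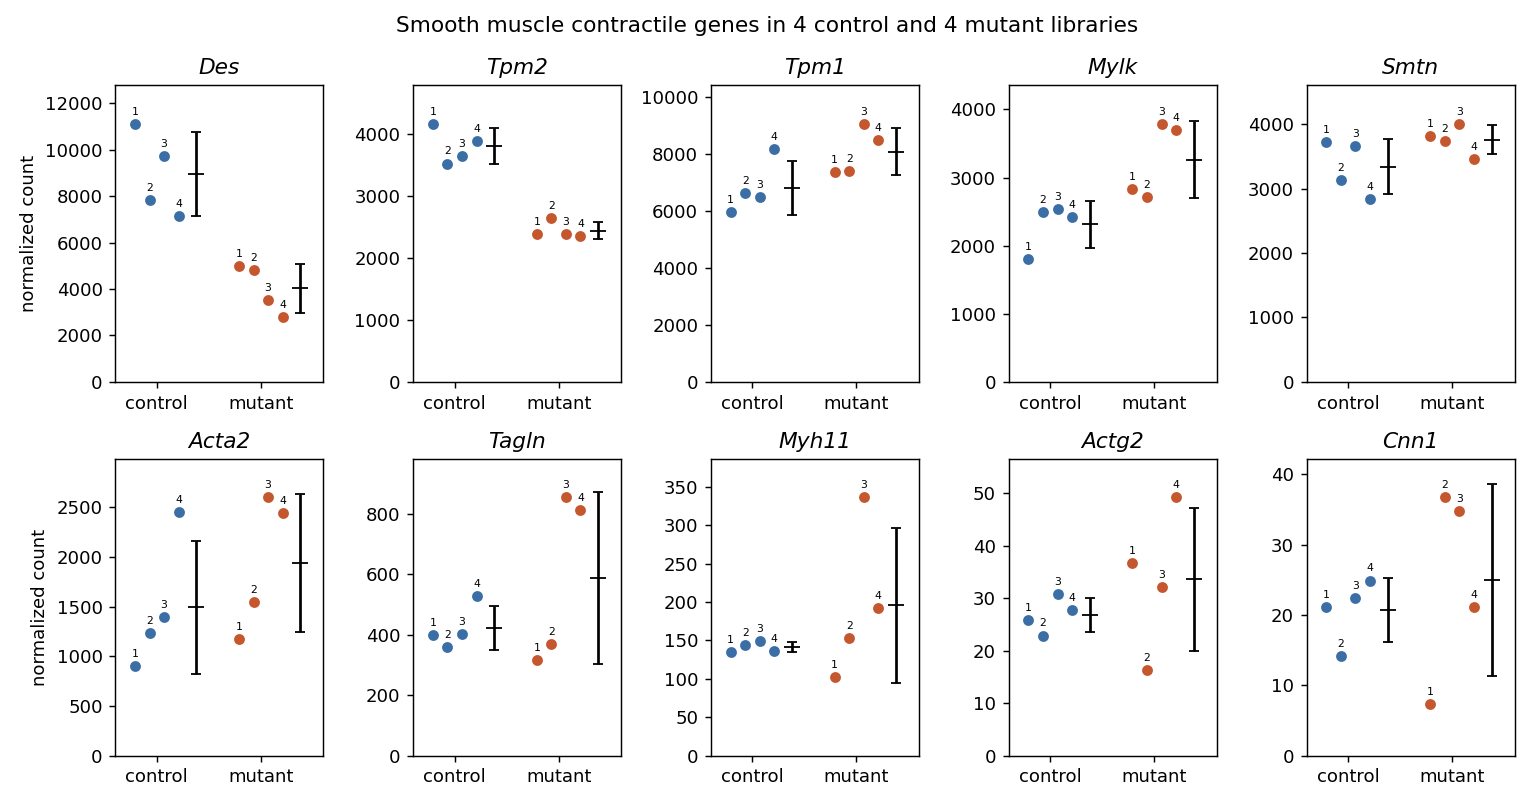
Normalized counts of the 10 genes by library (points, numbered by library) with the group mean and SD (bars) for 4 control and 4 mutant kidney pairs, each panel starting at 0. Des and Tpm2 were lower in all 4 mutants, Mylk was higher in all 4, and mutants 3 and 4 lay apart from mutants 1 and 2 for Acta2 and Tagln.

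Desmin, the muscle intermediate filament protein, gave the largest difference. In controls 1 to 4 it had 11119, 7844, 9720.0 and 7138 normalized counts, against 4985, 4837, 3520 and 2787 in mutants 1 to 4. The lowest control lay above the highest mutant, and the spread within each group was wide, with controls 1 and 3 high and mutants 3 and 4 low. The means were 8955 ± 1808 (SD, n = 4) and 4032 ± 1060 (SD, n = 4), a 2.22-fold lower level in mutants, with a log2 fold change of -1.17 (SE 0.20). Des did not pass the threshold in the fit over all genes. It did pass without control 4, where the log2 fold change was -1.27.

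Tpm2, the beta tropomyosin, fell and was the only member past the threshold. For Tpm2, as for Des and Mylk, passing or missing it is only a description, since this contrast chose the members. Controls 1 to 4 had 4168, 3525, 3640 and 3891 normalized counts, against 2385, 2641, 2383 and 2357 for mutants 1 to 4. The 2 groups were tight and well separated, with mutant 2 the highest mutant. The means were 3806 ± 286 and 2441 ± 134 (SD, n = 4 each), 1.56-fold lower in mutants, with a log2 fold change of -0.64 (SE 0.08). It was no longer past the threshold when control 1, control 3, mutant 1 or mutant 3 was left out, with log2 fold changes of -0.59, -0.66, -0.63 and -0.63.

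Tpm1, the alpha tropomyosin, went the other way. Its counts were 5948, 6633, 6475 and 8175 in controls and 7381, 7406, 9061 and 8489 in mutants 1 to 4. Control 4 lay among the mutants, and the log2 fold change was 0.25 (SE 0.11). As a share of the estimated counts of the 4 tropomyosin genes, Tpm2 made up 12.8% to 15.3% in controls and 8.04% to 9.51% in mutants. Tpm1 made up 24.2% ± 2.11 in controls and 28.5% ± 1.96 in mutants (SD, n = 4 each), and the 2 groups overlapped. Shares of counts are not corrected for transcript length and describe each gene within its own library. They reuse the counts on which the members were chosen. Tpm4, a non-muscle tropomyosin, was the largest share in both groups, 44.6% ± 3.79 and 43.8% ± 0.386.

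A similar shift in share was seen for Des beside Vim, which encodes vimentin, the main intermediate filament protein of mesenchymal cells. Des was 34.2%, 28.0%, 31.5% and 25.1% of the summed Des and Vim counts in controls 1 to 4. In mutants 1 to 4 it was 15.7%, 15.0%, 11.3% and 9.0%. Every mutant share was below every control share, which follows from Des being lower and Vim higher in every mutant than in every control. Vim itself was at 21018 ± 544 normalized counts in controls and 27539 ± 572 in mutants (SD, n = 4 each), which is 0.39 on the log2 scale (SE 0.07, limma adjusted p = 0.0688). It missed the threshold there and passed it with limma voom, a version of the fit that weights values by their precision (adjusted p = 0.0379), and without control 4 (0.40, adjusted p = 0.0236).

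**Figure D2:**
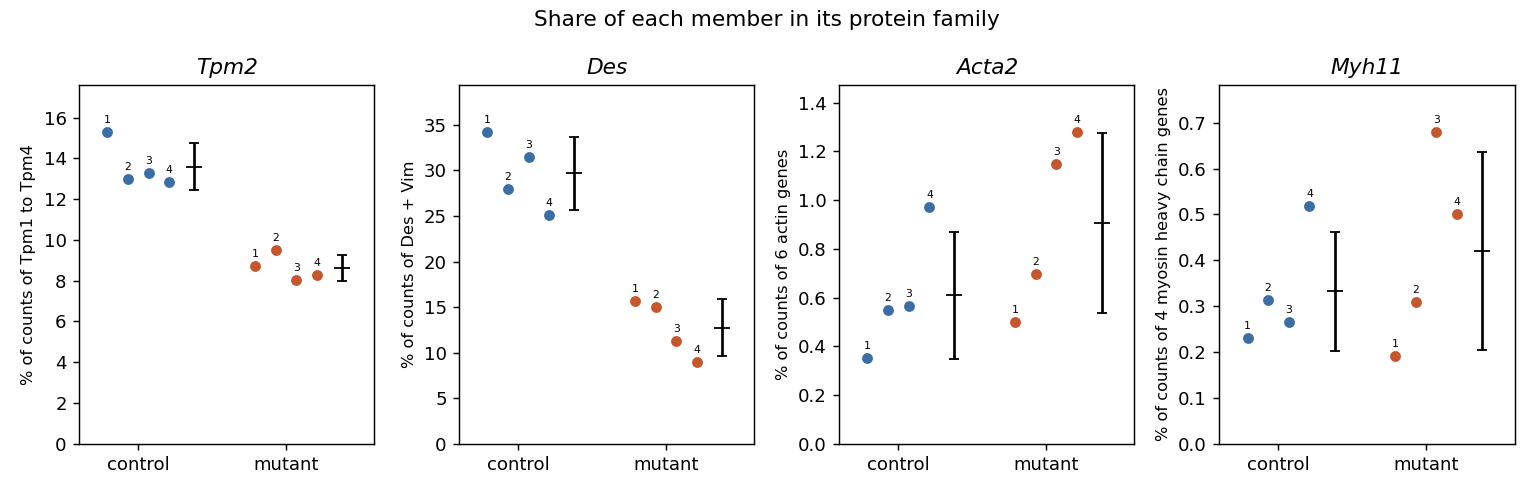
Share of each gene in the estimated counts of its protein family, in percent, for Tpm2 (of 4 tropomyosins), Des (of Des and Vim), Acta2 (of 6 actins) and Myh11 (of 4 myosin heavy chains). Points are libraries and bars the mean and SD, and the Tpm2 and Des shares of the 4 mutants lie below those of all 4 controls while the Acta2 and Myh11 shares overlap.

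Mylk, the kinase that switches on smooth muscle myosin, was the member higher in every mutant. Its counts were 1797, 2489, 2537 and 2422 in controls and 2837, 2716, 3791 and 3704 in mutants 1 to 4. The gap between the highest control and the lowest mutant was small, control 1 was low, and mutants 3 and 4 were high. The means were 2311 ± 346 and 3262 ± 564 (SD, n = 4 each), with a log2 fold change of 0.49 (SE 0.15). It did not pass the threshold in that fit or in any of the 20 alternatives.

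The authors' deposited table of 644 genes, all with an adjusted p of at most 0.0498, lists 3 of the 10 members. The authors' deposited table gives log2 fold changes of -1.24 (SE 0.18) for Des, -0.63 (SE 0.09) for Tpm2 and 0.52 (SE 0.16) for Mylk. The other 7 members are not in the authors' deposited table. These values come from the same libraries and are no independent evidence.

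Acta2, alpha smooth muscle actin, had counts of 902, 1232, 1399 and 2449 in controls and 1170, 1544, 2599 and 2444 in mutants 1 to 4. Control 4 was as high as mutants 3 and 4, so the groups overlapped widely, and the log2 fold change was 0.40 (SE 0.33). Tagln, an actin-binding protein and early smooth muscle marker, was at 399, 359, 403 and 529 in controls and 316, 368, 853 and 812 in mutants. Mutants 3 and 4 stood above every control and mutant 1 below every control, with a log2 fold change of 0.35 (SE 0.32). Myh11, the myosin heavy chain specific to smooth muscle, was at 135, 145, 149 and 136 in controls and 102, 153, 336 and 192 in mutants. Its controls were close together and its mutants lay on both sides of them, with a log2 fold change of 0.33 (SE 0.31). Without control 4 and mutants 3 and 4, an alternative added after seeing the data, the median over the 10 members was -0.13, and Tagln and Myh11 had log2 fold changes of -0.18 and -0.19.

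Smtn, which binds actin in contractile smooth muscle and in other cells, had the smallest standard error of the members whose groups overlapped. Its counts were 3721, 3136, 3666 and 2842 in controls and 3814, 3735, 4006 and 3462 in mutants, and 3 of 4 mutants lay above every control. The log2 fold change was 0.17 (SE 0.10). Actg2, the enteric gamma actin, ran from 22.9 to 30.8 in controls and from 16.3 to 49.2 in mutants (log2 fold change 0.23, SE 0.39). Cnn1, a marker of mature smooth muscle, ran from 14.2 to 24.9 in controls and from 7.34 to 36.7 in mutants (log2 fold change 0.07, SE 0.54). These 2 genes rested on 10 to 56 and 9 to 45 estimated counts per library. Their standard errors were far above the 0.08 of Tpm2. Whether a difference of the size seen for Tpm2 could be detected in them was not tested.

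Compared per kilobase of the principal transcript, Tpm1 was the highest member in controls, at 3587 ± 505 normalized counts per kilobase (SD, n = 4). Des followed at 2957 ± 597, its mean ± SD overlapping that of Tpm1, and then Tpm2 at 1814 ± 136. Smtn at 987 ± 125 and Acta2 at 735 ± 329 did not differ beyond their spread, nor did Mylk at 295 ± 44.2 and Tagln at 265 ± 46.0. Myh11, Actg2 and Cnn1 were far lower, at 21.9 ± 1.05, 20.1 ± 2.47 and 8.68 ± 1.92. In mutants Tpm1 led at 4259 normalized counts per kilobase. The mean ± SD of Des, 1332 ± 350, overlapped those of Tpm2 at 1164 ± 63.8, Smtn at 1109 ± 66.6 and Acta2 at 953 ± 340. The genes most restricted to smooth muscle, Myh11 and Cnn1, were thus at low levels in both groups.

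Library names carry a number whose meaning the labels do not give, and controls 1 and 2 share theirs with mutants 1 and 2, as control 4 does with mutant 4. Within the first of these sets the log2 difference was -0.93 for Des, -0.61 for Tpm2 and 0.39 for Mylk. Within the second, with 1 library each, it was -1.36, -0.72 and 0.61. Tagln was at -0.15 in the first set and 0.62 in the second, and Myh11 at -0.16 and 0.50. Acta2 was at 0.35 in the first set and at -0.0033 in the second. For Des, Tpm2 and Mylk the direction had to be the same in both sets, since their control and mutant libraries did not overlap. The direction was also the same for Tpm1 (0.24 and 0.05), Smtn (0.14 and 0.28), Actg2 (0.01 and 0.81) and Cnn1 (-0.05 and -0.23). It differed for Tagln and Myh11, and Acta2 was near 0 in the second set. With the number as a block in the fit, Des passed the threshold at -1.07 and Tpm2 no longer did at -0.65.

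The members also differed in how they varied across the 8 libraries. These correlations of log2 normalized counts describe 8 libraries that differ in depth, in genotype and in the levels of cell type markers. The value after centring each genotype on its own mean is therefore given beside each. Acta2 and Tpm1 had Pearson's r = 0.92 over the libraries and 0.96 after centring. Acta2 and Tagln had r = 0.84 and 0.82, and Tagln and Myh11 r = 0.84 and 0.81. Before centring, Des had a negative r with 8 of the other 9 members, including -0.92 with Mylk (-0.81 after centring). Its positive r before centring was with Tpm2, 0.92, which came to 0.50 after centring. Tpm2 had a negative r with 7 of the other 9 before centring. The sign turned on centring for Smtn, from -0.25 to 0.67 with Des and from -0.51 to 0.19 with Tpm2.

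Averaged over members, the z-scored levels were among the most like those of Sord (r = 0.96 over 8 libraries, 0.96 after centring) and Foxa1 (0.95 and 0.95). Nap1l3, Myd88 and Cdc42bpa followed, with r of 0.94, 0.94 and 0.93. That mean profile was highest in mutant 3 and joins members that moved in opposite directions. The genes most like each of 3 single members were therefore listed after the values were seen. For Des the closest was Six2, a transcription factor that keeps nephron progenitors undifferentiated, with r = 0.99 over 8 libraries and 0.97 after centring, followed by Six3 and Csf3. Six2 was at 13695, 8458, 11175 and 6108 normalized counts in controls and 3297, 2799, 1181 and 608 in mutants 1 to 4, so the order of the libraries by Six2 was also their order by Des. Tpm2 was closest to Ttpa (0.99 and 0.78) and Ppp1r14b (0.98 and 0.88), and Acta2 to Washc3 (0.99 and 0.99) and Scnn1b (0.99 and 0.99).

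**Figure D3:**
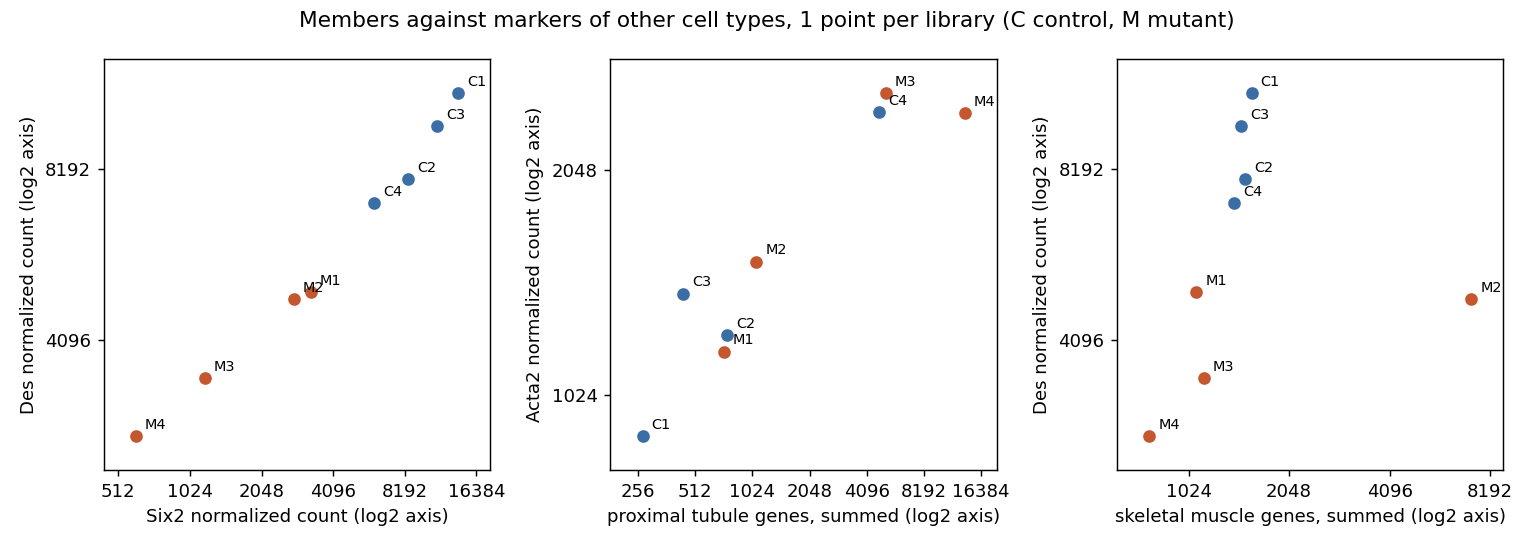
Normalized counts of Des against Six2, of Acta2 against the summed counts of 10 proximal tubule genes, and of Des against the summed counts of 32 skeletal muscle genes, on log2 axes, with 1 point per library (C control, M mutant). Des follows Six2 through all 8 libraries, Acta2 is high in control 4 and mutants 3 and 4 where the tubule genes are high, and mutant 2 stands apart in the third panel, with skeletal muscle genes at 7183 and Des at 4837.

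Markers of other cell types moved with these patterns, and their part in the members' values was not tested. Nephron progenitor markers summed to 52570, 35923, 46717 and 28132 in controls and 29787, 26911, 20480 and 15620 in mutants 1 to 4. In that list 9 of 10 genes had a log2 fold change below 0, with a median of -1.08. An unadjusted p under 0.05 was found for 7, all lower, against 12.0% of all genes tested. Past limma's threshold were 2, Crym with a log2 change of -2.87 and Osr1 of -1.69 (limma adjusted p = 0.0185 and 0.0152). Crym no longer passed without control 1, control 3, mutant 3 or mutant 4 (log2 changes of -2.77, -2.80, -2.55 and -2.64), nor Osr1 without control 3, mutant 1 or mutant 3 (-1.64, -1.76 and -1.66). Six2 and Meox1 passed without control 4, at -2.76 and -1.52, and Meox1 also with voom. Proximal tubule markers summed to 270, 753, 441 and 4747 in controls and 723, 1073, 5168 and 13426 in mutants, so control 4 and mutants 3 and 4, the libraries with the most Acta2, also had the most tubule RNA. None of the 6 tubule genes tested passed limma's threshold, none had an unadjusted p under 0.05 and voom called none. The 7 podocyte genes tested had 0 calls by limma and by voom and 3 with an unadjusted p under 0.05, all higher, among them Plce1 at 0.59 (adjusted p = 0.171).

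Des and both tropomyosins are also made by skeletal muscle, which can be carried along with a dissected kidney. The skeletal muscle list without Tpm3 summed to 1404 to 1582 normalized counts in controls. It summed to 1080, 7183, 1137 and 780.0 in mutants 1 to 4. Mutant 2 stood far above all libraries, with embryonic myosin Myh3 at 1449 against 13.2 to 70.8 elsewhere, and the other 3 mutants were below every control. Of the 33 genes 20 were high enough to test, with 0 calls by limma or voom, 0 at an unadjusted p under 0.05 and a median log2 fold change of -0.02. That median was -0.54 without mutant 2 and -0.27 without control 4, and it was above 0 without mutant 1, 3 or 4 (0.09, 0.04 and 0.19). The smallest p-values were those of Tnni1 (-0.44, adjusted p = 0.694) and Mybpc1 (-0.65, adjusted p = 0.713). The myogenic factors Myog, Myod1, Myf5 and Myf6 were too low to test. Myog was at 5.59 to 21.2 in controls and 2.45 to 73.5 in mutants, highest in mutant 2. Myod1 was at 2.76 to 8.30 in controls and 0 to 39.2 in mutants, also highest in mutant 2. Myf6 was at 0 in every library but mutant 2 (2.45), and Myf5 was at 0 in controls 2 to 4 and mutants 1 and 4. Without mutant 2 the log2 fold change was -1.27 for Des and -0.68 for Tpm2. The part of skeletal muscle RNA in these differences was not tested. Of 7 measured heart muscle genes, limma tested 2, Ryr2 (-0.53, adjusted p = 0.738) and Tnni3 (0.11, adjusted p = 0.946), and neither passed.

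The wider contractile apparatus gave no call. Of 30 other smooth muscle contractile and filament genes, among them the light chains Myl9 and Myl6, caldesmon (Cald1) and vinculin (Vcl), 29 were tested and Pln was too low. None passed limma's threshold or voom's, and 2 had an unadjusted p under 0.05, both higher, a smaller share than the 12.0% of all genes. The median log2 fold change was 0.15, with 19 positive and 10 negative, and it was 0.09 without control 2, 0.08 without control 4 and 0.10 without mutant 3. Jph2, which ties the plasma membrane to the calcium store of muscle, was at 403, 494, 473 and 371 in controls and 553, 612, 737 and 839 in mutants 1 to 4. The groups did not overlap and differed by 0.64 on the log2 scale (SE 0.16, adjusted p = 0.126), and the authors' deposited table lists it at 0.58 (SE 0.17).

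**Figure D4:**
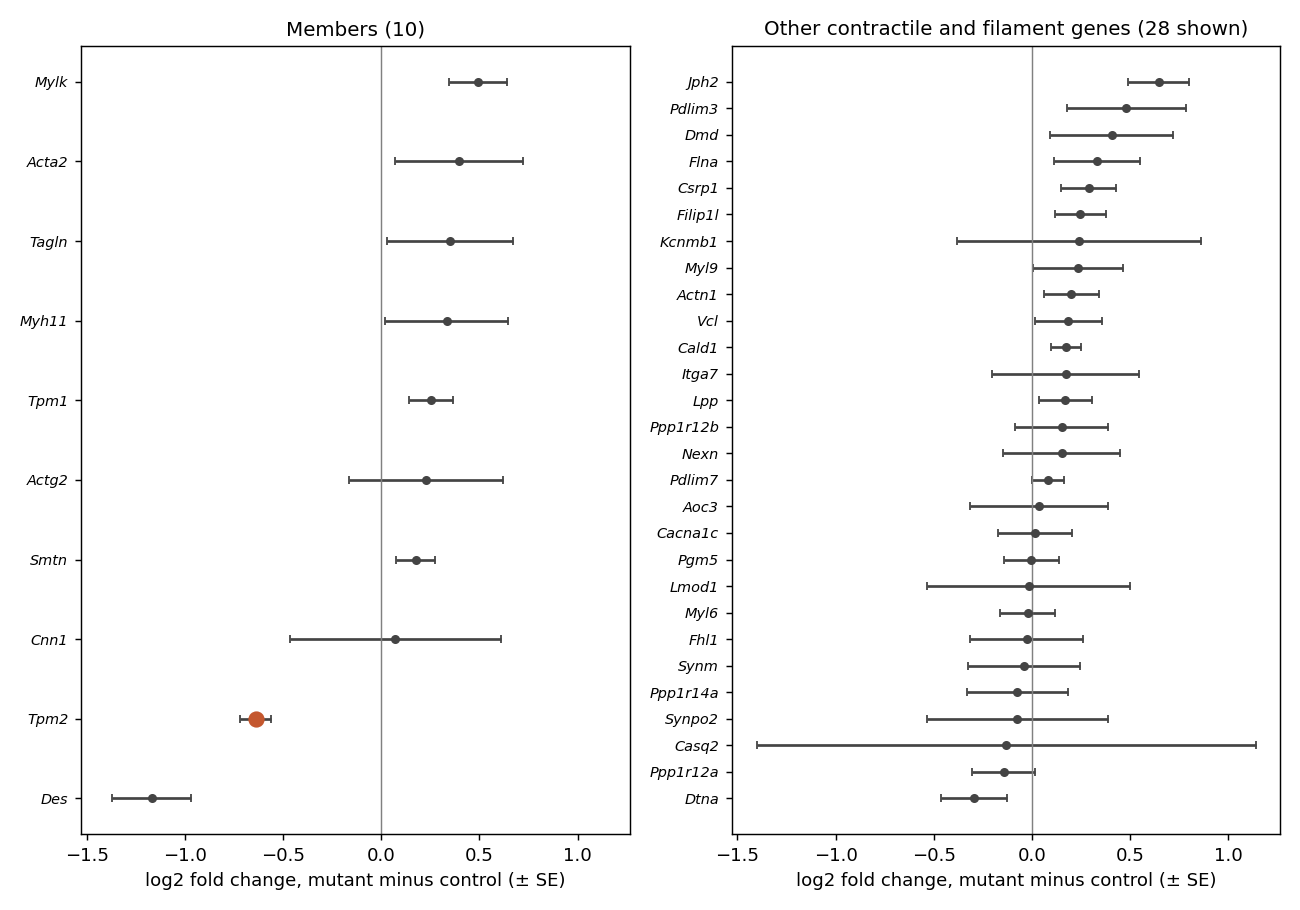
Log2 fold changes of mutant minus control with their standard errors for the 10 smooth muscle genes (left) and 28 of the 29 other contractile and filament genes tested (right), from the limma fit over all genes. Des at -1.17 and Tpm2 at -0.64 (the large point, past the threshold) lie below the lowest of the 28, Dtna at -0.30.

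The non-muscle relatives of the members include the cytoskeletal actins, transgelins, calponins, tropomyosins and myosins. Of 16 such genes 14 were tested and 0 passed in limma, with 4 at an unadjusted p under 0.05, 3 of them higher. The lower one, picked out after its values were seen, was Actb, which encodes beta-actin: it was lower in every mutant (-0.37, SE 0.13, adjusted p = 0.289), and at 0.10 with no depth correction. Voom called 1 of them, Vim. Myh14, a non-muscle myosin heavy chain, was at 0.64 (SE 0.22, adjusted p = 0.281). Within the actins Acta2 was 0.609% ± 0.262 of the family's counts in controls and 0.906% ± 0.369 in mutants (SD, n = 4 each), and the cytoskeletal actins Actb and Actg1 made up most of the rest. Myh11 was 0.332% ± 0.129 and 0.420% ± 0.216 of the counts of 4 myosin heavy chains, and Tagln 12.5% ± 2.14 and 13.9% ± 4.67 of the transgelins, all with overlapping groups.

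Regulators of the smooth muscle programme centred near 0. All 20 were tested, 0 passed by limma or voom, 3 had an unadjusted p under 0.05 (2 higher and 1 lower), near the background of 12.0%, and the median log2 fold change was 0.04. Srf, the factor that binds the CArG box, was at 2688, 2993, 2727 and 2377 in controls and 2894, 2996, 2643 and 2369 in mutants 1 to 4, a log2 fold change of 0.01 (SE 0.10). Its partner Myocd was at 0.20 (SE 0.31), and the myocardin-related factors Mrtfa and Mrtfb were at 0.15 (SE 0.12) and -0.24 (SE 0.16). Gata6, a transcription factor of vascular smooth muscle, was at 757 to 963 in controls and 1086 to 1224 in mutants, without overlap (0.44, SE 0.10, adjusted p = 0.119). Without control 4 it passed, at 0.50 (adjusted p = 0.0435). Tgfb1, a growth factor that induces contractile genes, was at 0.34 (SE 0.11, adjusted p = 0.268).

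The tissues that carry smooth muscle were also described by their markers. Of 12 ureter mesenchyme genes none passed by limma or voom, and 5 had an unadjusted p under 0.05, all higher. Bmp4, a signal that promotes ureter muscle, was at 521, 560.1, 717 and 850 in controls and 958, 994, 1129 and 990 in mutants 1 to 4, without overlap (0.64, SE 0.15, adjusted p = 0.121). The WNT-binding protein gene Sfrp2 was at 0.57 (SE 0.17, adjusted p = 0.224), and both passed without control 4, at 0.77 and 0.76. The 9 urothelial genes tested had 0 calls by limma or voom and 0 at an unadjusted p under 0.05, with Shh at 0.52 (adjusted p = 0.458) and Grhl3 at 1.04 (adjusted p = 0.465).

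Of 15 pericyte and mesangial genes 13 were tested and none passed by limma or voom, while 7 had an unadjusted p under 0.05, 5 higher and 2 lower. Ren1, which encodes renin and is made by vessel wall cells in the developing kidney, was at 241, 105, 123 and 66.4 in controls and 17.9, 14.7, 22.6 and 40.4 in mutants. It was lower in every mutant (-2.38, SE 0.44, adjusted p = 0.0744) and passed without control 4, at -2.66, as did Itga8 at -0.52. Abcc9, a potassium channel subunit of pericytes, was higher in every mutant (0.67, SE 0.14, adjusted p = 0.0932). Of 15 renal stromal genes none passed by limma or voom and 3 had an unadjusted p under 0.05, with Col1a2 at 0.50 (adjusted p = 0.188) and Tnc at -0.56 (adjusted p = 0.239). The 8 endothelial genes had 0 calls by limma or voom and 5 with an unadjusted p under 0.05, all higher, led by Tie1 at 0.55 (adjusted p = 0.104) and Tek at 0.42 (adjusted p = 0.106).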

How the data were processed

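Polyadenylated RNA from 4 control and 4 mutant kidney pairs was sequenced, per the labels' protocols. Per the submitters' processing notes, fastp 0.23.2, kallisto 0.46.0, DESeq2 1.40.2 and build mm10 were used. No source used here says in which role. The first deposited table holds log2(estimated count + 1), and its values carry no correction for depth. The recovered count was whole within 1e-06 for 73.4% of values. The authors' second table gives, per the file headers, log2 fold changes and their standard errors, p-values, the test statistic as a score, and a mean signal in normalized counts.

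Recovered estimated counts were divided by median-of-ratios size factors (0.361 in control 4 to 1.27 in control 2). The 14974 genes that reached a normalized count of 10 in 4 or more libraries entered a test of log2(normalized count + 1) in limma 3.58.1 in R 4.3.3 (eBayes with trend, genotype as the only term, two-sided, Benjamini-Hochberg, threshold 0.05). Fold changes on this scale understate those of low genes. The p-values set genotypes against the spread between kidney pairs, whose litters the labels do not give. The fit was also run on simulated counts, with the same extra spread between libraries for every gene and no litter or sex effect. That run does not bear on how stable the calls are in these libraries.

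The members and the 13 other gene lists were chosen with earlier results of these data known. All members are named, with Etv4 and Etv5 and, from each list, up to 4 genes past the threshold or else the 2 with the smallest p. All regulators could be given by their values, as could the 6 genes most like the members' mean. Other genes were named after their values were seen, and some that the rule selects are not reported here. Positions and transcript lengths are from GENCODE M21 on GRCm38. Plots used matplotlib 3.10.9 under Python 3.11.15.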

Additional observations from a re-analysis of the deposited data

Results flagged for a closer look

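In each group of 4, a sample was marked when its gap to the nearest other library was large against the group's whole range by Dixon's 95% critical value, a rule that marks about 1 in 20 groups by chance. Over 64 groups, 6 were marked. Tpm2 in mutant 2 was at 2641 normalized counts against 2357 to 2385 in the other mutants, still below every control. Mylk in control 1 was at 1797 against 2422 to 2537 in the other controls. Cnn1 in control 2 was 0.0744% of the calponin counts against 0.110% to 0.115%. The pericyte and mesangial genes summed to 19603 in control 4 against 27327 to 28206, and the proximal tubule genes to 4747 there against 270 to 753. The skeletal muscle genes summed to 7183 in mutant 2 against 780.0 to 1137 in the other mutants.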

How the results depend on the processing

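Tpm2 kept its sign in 20 of 20 alternatives and was past the threshold in 13, and Des kept its sign in 20 and was past it in 6. Such counts describe the fits and are no test of Tpm2 or Des, since the contrast chose the members. The sign turned in 5 of 18 alternatives for Cnn1, 2 of 20 for Tagln and for Myh11 and 1 of 19 for Actg2. The count of genes past the threshold, 45, became 80 with no depth correction, 69 with voom, 16 for controls 1 and 2 against mutants 1 and 2, and 136 without control 4 and mutants 3 and 4 (added after seeing the data). It ran from 2, without control 3, to 167, without control 4, when 1 library was left out. It was 10 without control 1, 13, 19, 9 and 23 without mutants 1 to 4. The members past it, 1, became 2 with upper quartile scaling, voom or the added alternative and 0 with no depth correction or with controls 1 and 2 against mutants 1 and 2, and ran from 0 to 2 with 1 library left out. With no depth correction the median was 0.70 for the members, 0.62 for the other contractile genes and 0.48 for all genes, with Tpm2 at -0.17 and Des at -0.70. It was -0.13 for the members without control 4 and mutants 3 and 4. The cause was not tested. A replicate block gave 133 genes and 2 members. The deviations of same-numbered libraries correlated at 0.27, 0.10, -0.13 and 0.35, and 5 of 8 libraries correlated best with their own number. The negative value was that of control 3 and mutant 3, whose library names share no number. These values do not settle whether the libraries are paired, and the labels state no pairing. Actg2 and Cnn1 had the fewest counts of the members, and control 4 the fewest of the libraries, which limits their precision.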
